A study of Danio rerio with 12 samples.

Results

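The integrated stress response genes described here are 9 genes of zebrafish larvae, taken by symbol from a list of 10 regulators and target genes of that response. The list comprised atf4a, atf4b, atf5b, ddit3, ddit4, trib3, chac1, asns, ppp1r15a and cebpb, and atf4a was not analysed here. Each of the other 9 symbols matched a single Ensembl gene ID among 32105 in the count files, of which 26269 had a symbol. All 9 passed the filter on low counts, as did 23096 genes in total.

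RNA was sequenced from pools of 10 whole larvae collected at about 119 hours post-fertilization (hpf), in 4 groups of 3 libraries. Wild-type larvae were of the TAB14 strain. Mutant larvae came from an incross of F2 fish homozygous for 1 as3mt allele, an 8 bp deletion in exon 3 that brings a premature stop codon, in the ABNYU strain. As3mt is the methyltransferase that converts inorganic arsenic to methylated forms. Within each genotype, 3 pools received no arsenic and 3 received 1 mM inorganic arsenic (iAs) in the medium from 6 hpf, at 20 embryos per 10 mL well. The mutation and the strain cannot be told apart in any comparison between genotypes, and only 1 mutant allele was studied. In pools of whole larvae, fewer cells of a type and less RNA per cell cannot be told apart either.

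In the integrated stress response, kinases that sense different stresses phosphorylate the translation factor eIF2alpha, which lowers most protein synthesis while favouring translation of a few mRNAs, among them that of Atf4. Atf4 and its partners then switch on genes of amino acid supply, redox control and cell death, and a phosphatase subunit made by the same programme removes the phosphate again. Much of the control over Atf4 is translational, so mRNA counts show its transcript and its targets but not its protein or the phosphorylation of eIF2alpha. Arsenite is a classical trigger of this response in cultured cells.

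The libraries held between 28909467 and 43759270 counts each, of which the 10 most abundant genes took 8.80 to 9.90%. As a check of the labels, as3mt itself (ENSDARG00000027572) was measured at 14.3 to 17.2 counts per 1000000 counts of scaled library size (CPM) in untreated wild type, 9.73 to 9.93 CPM in treated wild type, 9.21 to 9.91 CPM in untreated mutants and 3.02 to 3.51 CPM in treated mutants. The deletion removes only 8 bp, so reads from the rest of the transcript do not by themselves test the allele. The 1st treated mutant library stood further from its 2 partners than they did from each other, with a chi-square over degrees of freedom of 21.5 and 17.2 against 8.22. It was the highest of its group for 7 of the 9 genes and the lowest for ddit4 and asns. The 3rd untreated mutant library also stood further from its 2 partners, at 14.3 and 11.6 against 5.62 between them. No fold change of the 9 genes moved by more than 1.5 times when any 1 library was left out. Marker genes of several organs also differed between the groups, and their values stand after the results of the 9 genes.

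Arsenic raised most of the 9 transcripts in both genotypes, and raised them further in the mutant. In wild type, 6 of 9 rose and chac1 fell, with a median log2 fold change of 0.54 over the 9. Among all genes tested, 44.8% were called in wild type, 22.6% higher and 22.2% lower, with a median of 0.01. In the mutant, 7 of the 9 rose and chac1 again fell, with a median of 1.37, beside 63.6% of all genes called, 31.1% higher and 32.6% lower, and a median of 0.01. The treated libraries lay wholly above the untreated ones for the same 6 and 7 genes that were called higher, against 28.4% of all genes in wild type and 32.8% in the mutant, and wholly below them for chac1, against 27.1% and 33.9%. A call is an adjusted p below 0.05 in edgeR's quasi-likelihood test with Benjamini-Hochberg adjustment over all 23096 genes. The 2 largest changes of the 9 in treated mutants were those of ppp1r15a and cebpb, which were 7.12-fold and 6.82-fold higher than in untreated mutants. The amino acid gene asns was higher with arsenic in wild type and not called in the mutant.

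**Figure D1:**
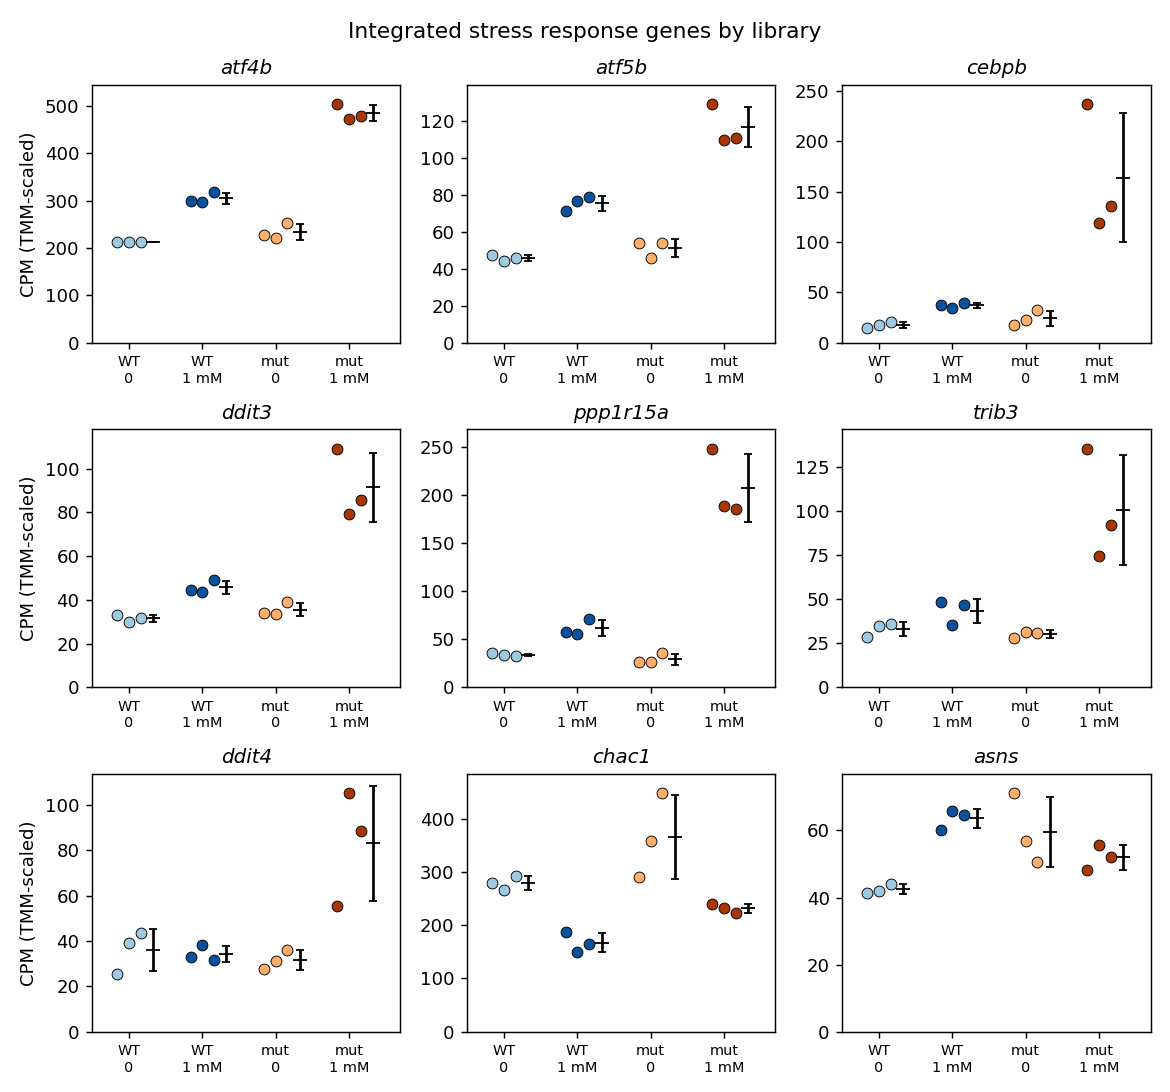
Level in CPM, on a linear axis from 0, of each of the 9 genes in all 12 libraries, with 1 point for each library and the mean and SD of each group of 3 (n = 3) drawn to its right. The treated mutant libraries lie above all other libraries for 7 genes, among them ppp1r15a at 185 to 248 CPM, while chac1 is lower with arsenic in both genotypes and asns is lowest in untreated wild type.

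Among the transcription factors, atf4b (ENSDARG00000038141) encodes one of the zebrafish copies of Atf4, the central activator of the response. Its level was 213, 213 and 212 CPM in untreated wild type and 299, 298 and 318 CPM in treated wild type. In the mutant it was 227, 222 and 252 CPM without arsenic and 504, 472 and 478 CPM with it. The treated libraries lay above the untreated ones in each genotype, and the treated mutants above everything else. The rise was 1.43-fold in wild type (log2 0.52, SE 0.06, edgeR adjusted p = 1.4e-06) and 2.08-fold in the mutant (log2 1.05, SE 0.06, adjusted p = 4.8e-11). The mutant's response exceeded that of wild type by 0.53 on the log2 scale (SE 0.08, adjusted p = 1.2e-04 for the interaction).

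The transcript of atf5b (ENSDARG00000077785), a copy of the related factor Atf5 that is also under eIF2alpha-dependent translational control in mammals, moved much like atf4b. Its level was 47.7, 44.1 and 45.6 CPM in untreated and 71.1, 76.4 and 78.8 CPM in treated wild type. Untreated mutants had 53.9, 45.6 and 54.1 CPM, and treated mutants 129, 110 and 111 CPM. Again no treated library reached down to the untreated range of its genotype. The fold change was 1.65 in wild type (log2 0.72, SE 0.08, edgeR adjusted p = 8.9e-07) and 2.28 in the mutant (log2 1.19, SE 0.08, adjusted p = 4e-10), with an interaction of 0.47 (SE 0.11, adjusted p = 0.0038). Over the 12 libraries, the centred log2 levels of atf4b and atf5b differed by a root mean square of 0.10, the smallest distance of any 2 of the 9 genes.

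The gene ddit3 (ENSDARG00000059836) encodes Chop, a factor that promotes cell death under prolonged stress in mammals. It was at 33.2, 29.8 and 31.4 CPM in untreated and 44.6, 43.5 and 49.2 CPM in treated wild type. The mutant libraries gave 34.0, 33.4 and 38.9 CPM without arsenic and 109, 79.3 and 85.7 CPM with it. The groups with and without arsenic did not overlap in either genotype, and the 1st treated mutant library was the highest of all. Arsenic gave a 1.45-fold rise in wild type (log2 0.54, SE 0.10, edgeR adjusted p = 2.8e-04) and a 2.58-fold rise in the mutant (log2 1.37, SE 0.10, adjusted p = 1.5e-09). The interaction was 0.83 (SE 0.14, adjusted p = 2.5e-04).

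C/EBP beta, the product of cebpb (ENSDARG00000042725), is a leucine zipper factor that can pair with Atf4 and Chop and also acts in inflammation. Its transcript was at 14.9, 17.7 and 20.8 CPM in untreated wild type and at 37.4, 34.8 and 39.5 CPM in treated wild type. In the mutant it was at 17.4, 22.6 and 32.3 CPM without arsenic and at 237, 119 and 136 CPM with it. All treated mutants exceeded all other libraries, although the 3 differed widely among themselves. The rise was 2.10-fold in wild type (log2 1.07, SE 0.22, edgeR adjusted p = 8.5e-04) and 6.82-fold in the mutant (log2 2.77, SE 0.22, adjusted p = 6e-09), and the difference of the responses was 1.70 (SE 0.31, adjusted p = 5.1e-04). In the mutant, 1.09% of all genes tested had a larger log2 fold change than cebpb.

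The feedback regulators were ppp1r15a and trib3. The gene ppp1r15a (ENSDARG00000069135) encodes Gadd34, the stress-induced subunit that directs a phosphatase to eIF2alpha and so closes the response. Its level was 35.1, 33.7 and 32.8 CPM in untreated and 57.9, 55.1 and 70.6 CPM in treated wild type. The mutant libraries held 26.0, 26.0 and 35.4 CPM without arsenic and 248, 188 and 185 CPM with it. Treated mutants were thus far above treated wild type, from which they differed 3.38-fold (log2 1.76, edgeR adjusted p = 3.9e-09), while the untreated groups overlapped. The response was 1.81-fold in wild type (log2 0.85, SE 0.13, adjusted p = 2.8e-05) and 7.12-fold in the mutant (log2 2.83, SE 0.13, adjusted p = 3.8e-12). The interaction of 1.98 (SE 0.18, adjusted p = 3.7e-07) was the largest of the 9 genes, and 1.11% of all genes tested had a larger one.

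The gene trib3 (ENSDARG00000016200) encodes a pseudokinase that is induced by Atf4 and Chop in mammals and dampens their activity. In wild type its transcript was at 28.5, 34.5 and 35.8 CPM without arsenic and at 48.3, 35.4 and 46.4 CPM with it. In the mutant it was at 27.7, 31.6 and 31.1 CPM without arsenic and at 135, 74.3 and 92.0 CPM with it. The wild-type groups overlapped through the 2nd treated library, and the mutant groups were well apart. The wild-type difference of 0.40 on the log2 scale (SE 0.16) gave an edgeR adjusted p of 0.056 and was not called. It passed the threshold, with 0.53 and adjusted p = 0.019, when that 2nd treated wild-type library was left out, and also without the 1st or the 2nd treated mutant library (adjusted p = 0.0072 and 0.019). Scaling by library size alone (adjusted p = 0.045) and fitting with no filter on low counts (adjusted p = 0.033) brought it past the threshold as well, which made 7 of 9 called higher in wild type. In the mutant the rise was 3.34-fold (log2 1.74, SE 0.16, adjusted p = 4.6e-08), and the interaction was 1.34 (SE 0.23, adjusted p = 2.9e-04).

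The stress effectors ddit4 and chac1 departed from that pattern in different ways. The gene ddit4 (ENSDARG00000037618) encodes Redd1, an inhibitor of mTORC1 signalling that is also induced by hypoxia and glucocorticoids. It was at 25.5, 39.0 and 43.6 CPM in untreated and 32.9, 38.2 and 31.8 CPM in treated wild type, and at 27.8, 31.1 and 36.2 CPM in untreated mutants. The treated mutants had 55.3, 105 and 88.4 CPM, so that only this group stood apart. In wild type the log2 difference was -0.07 (SE 0.19, edgeR adjusted p = 0.80), with an approximate 95% interval reaching from -0.44 to 0.31. In the mutant ddit4 rose 2.62-fold (log2 1.39, SE 0.19, adjusted p = 5.2e-06), and the interaction was 1.46 (SE 0.27, adjusted p = 6e-04).

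The gene chac1 (ENSDARG00000070426) encodes an enzyme that degrades glutathione and is a target of Atf4 and Chop in mammalian cells. It was the only one of the 9 to fall with arsenic in both genotypes. Its level was 279, 266 and 292 CPM in untreated and 187, 150 and 165 CPM in treated wild type. In the mutant it was 291, 359 and 448 CPM without arsenic and 239, 232 and 224 CPM with it. The treated libraries were below the untreated ones in each genotype, with the untreated mutants the most variable group. The level was 1.67-fold lower with arsenic in wild type (log2 -0.74, SE 0.11, edgeR adjusted p = 3.6e-05) and 1.58-fold lower in the mutant (log2 -0.66, SE 0.11, adjusted p = 4.5e-05). The responses of the genotypes differed by 0.08 (SE 0.16, adjusted p = 0.75), with an approximate 95% interval from -0.23 to 0.38. A difference anywhere in that interval is compatible with these libraries.

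Asparagine synthetase, the product of asns (ENSDARG00000016375), makes asparagine and is a textbook Atf4 target of amino acid starvation. Its transcript was at 41.3, 42.1 and 44.2 CPM in untreated wild type and at 60.2, 65.9 and 64.6 CPM in treated wild type. Untreated mutants had 71.1, 57.0 and 50.5 CPM, and treated mutants 48.2, 55.6 and 52.0 CPM. Untreated wild type was thus below the other 3 groups, and the mutant groups overlapped. Arsenic raised asns 1.50-fold in wild type (log2 0.58, SE 0.10, edgeR adjusted p = 8.6e-05). In the mutant the log2 difference was -0.20 (SE 0.09, adjusted p = 0.077), which was not called. It was called lower without the 3rd untreated mutant library (-0.31, adjusted p = 0.0048), with scaling by library size alone (-0.26, adjusted p = 0.030) and with no filter (-0.22, adjusted p = 0.043). The difference of the responses was -0.78 (SE 0.13, adjusted p = 3e-04), opposite in sign to the other 7 called interactions.

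Across the 9 genes, 7 responses to arsenic were larger in the mutant, that of asns was lower and that of chac1 was not called different, with a median interaction of 0.83. The same 7 and 1 were counted in each of the 12 fits that left out a library. Over all genes tested, 30.2% had a called interaction, 12.3% higher and 17.9% lower, and the median was -0.05. Scaling by library size alone changed that overall split from 2842 higher and 4142 lower to 2110 higher and 5100 lower and the median to -0.12, and the counts among the 9 genes stayed at 7 and 1. The comparisons between genotypes use these same libraries and are not independent of the responses.

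**Figure D2:**
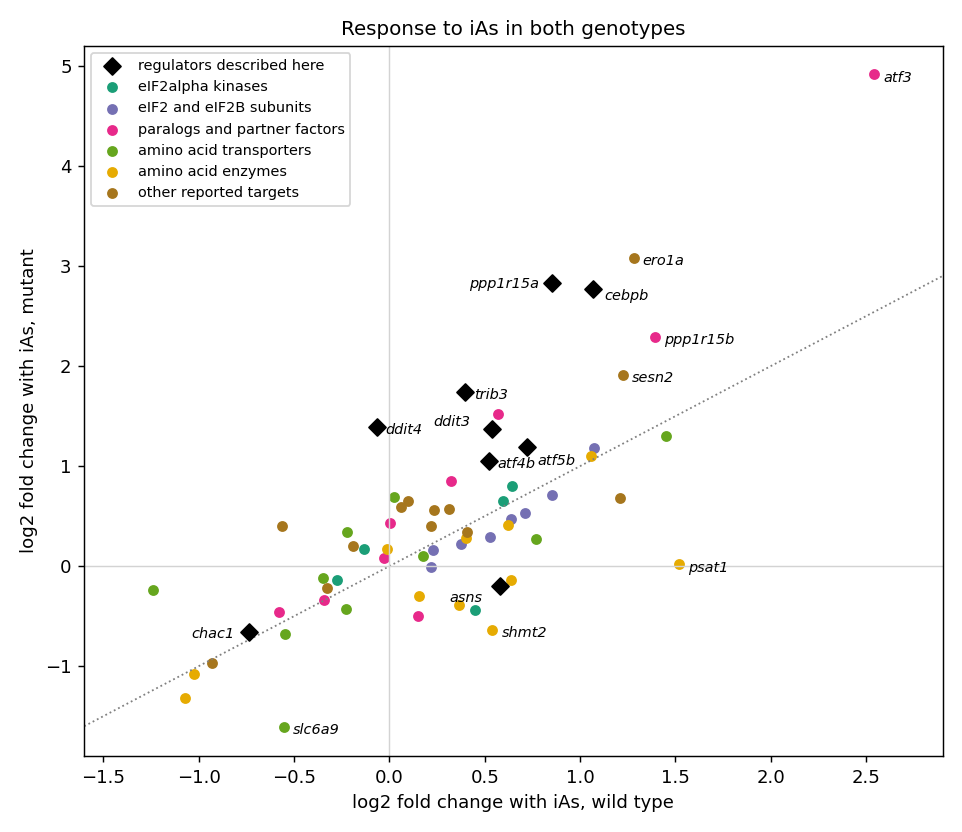
Log2 fold change with arsenic in the mutant (vertical axis) against that in wild type (horizontal axis) for the 9 genes and the other listed pathway genes, with the diagonal of equal responses drawn. Of the 9, ppp1r15a (0.85 and 2.83) and cebpb (1.07 and 2.77) lie far above the diagonal, asns (0.58 and -0.20) lies below it and chac1 (-0.74 and -0.66) lies close to it.

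Between the genotypes without arsenic, 2 of the 9 genes were called, both higher in the mutant, where 13.5% of all genes were called, 6.64% higher and 6.82% lower. These were asns, at 1.40-fold (log2 0.49, SE 0.10, edgeR adjusted p = 0.0020) with groups apart, and chac1, at 1.31-fold (log2 0.39, SE 0.11, adjusted p = 0.024) with overlapping groups. The chac1 call was lost when the 1st or 2nd untreated wild-type library or the 2nd or 3rd untreated mutant library was left out, with adjusted p-values of 0.070, 0.093, 0.056 and 0.13 in that order. Without the 3rd untreated mutant library, which was the highest of its group for 7 of the 9 genes, the chac1 difference was 0.22. The other 7 genes had log2 differences from -0.22 for ppp1r15a to 0.44 for cebpb, none of them called. The mutant libraries lay wholly above those of wild type for asns, atf4b and ddit3, 3 of the 9, while 16.2% of all genes did so and 16.4% lay wholly below. For atf4b the difference was 0.13 (adjusted p = 0.15) and for ddit3 0.17 (adjusted p = 0.31).

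With arsenic in both genotypes, all 9 genes were called, 8 higher in the mutant and asns lower, with a median log2 difference of 1.00. Over all genes, 50.4% were called, 22.5% higher and 27.9% lower, and the median was -0.04. The groups did not overlap for any of the 9, against 25.6% of all genes with the mutant libraries wholly above and 31.8% with them wholly below. The differences ranged from 1.38-fold for chac1 (log2 0.47, edgeR adjusted p = 0.0019) to 4.41-fold for cebpb (log2 2.14, adjusted p = 3.1e-07). The asns level was 1.22-fold lower in treated mutants (log2 -0.29, adjusted p = 0.016), and this call was lost, at -0.24 and adjusted p = 0.066, without the 1st treated mutant library.

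**Figure D3:**
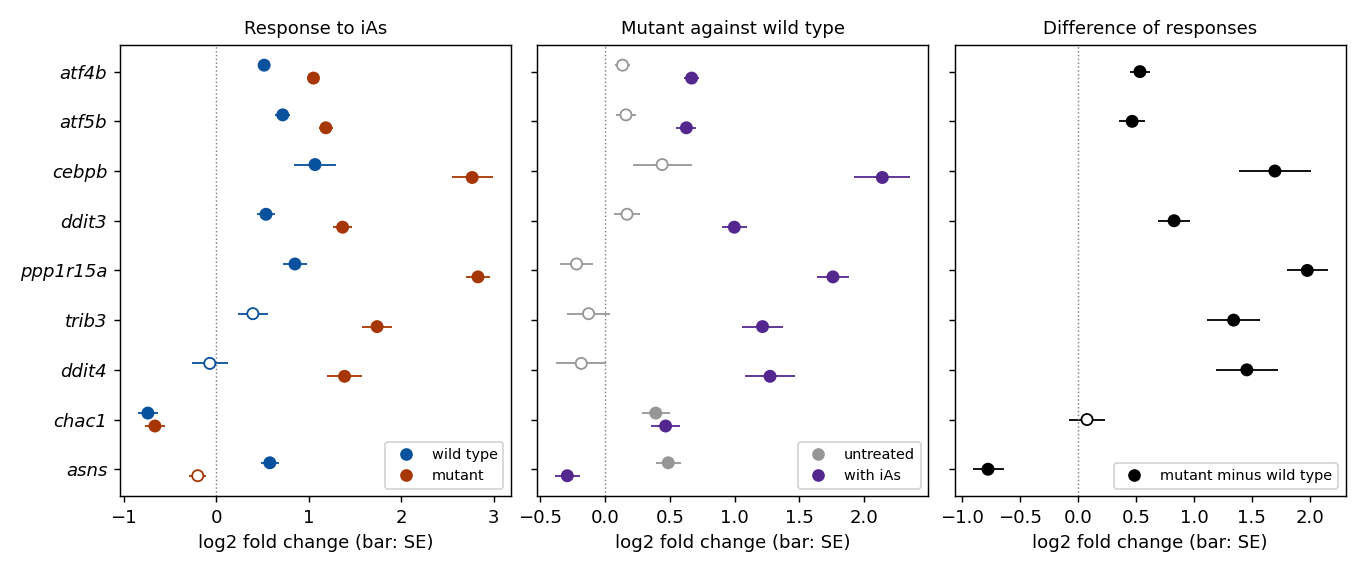
Log2 fold change (horizontal axis) of each of the 9 genes in the 5 comparisons, in panels for the arsenic responses, the genotype differences and the interaction, with bars of 1 standard error, filled points where the gene was called and open points where it was not. Without arsenic the genotype differences run from -0.22 to 0.49, and those of asns (0.49) and chac1 are called. The interaction reaches 1.98 for ppp1r15a and is -0.78 for asns.

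Upstream of Atf4, the eIF2alpha kinases each sense a different stress. Of their 5 IDs, 2 rose and 1 fell in wild type, beside 22.6% and 22.2% of all genes, and 2 rose in the mutant, beside 31.1%. No kinase had a called interaction, beside 30.2% of all genes. Transcripts of eif2ak1, the kinase Hri that senses haem shortage and arsenite, rose by 0.59 in wild type and 0.65 in the mutant on the log2 scale (edgeR adjusted p = 1.7e-05 and 1.8e-06). Those of eif2ak4, the amino acid sensor Gcn2, rose by 0.64 and 0.80 (adjusted p = 4.3e-07 and 7.6e-09). The endoplasmic reticulum kinase Perk, from eif2ak3, fell by 0.28 in wild type (log2, adjusted p = 0.0030) and gave -0.14 in the mutant (adjusted p = 0.084). In the mutant eif2ak3 was called lower with scaling by library size alone (edgeR adjusted p = 0.016). It was also called lower there without the 3rd untreated or the 1st treated mutant library (adjusted p = 0.032 and 0.021). The kinase gene eif2ak2, which responds to double-stranded RNA, was called in neither genotype with arsenic. Its level differed between the genotypes, at 1.26 to 2.17 CPM in the wild-type and 4.56 to 6.63 CPM in the mutant libraries, a 2.68-fold difference without arsenic (adjusted p = 7.3e-05) and a 3.32-fold one with it (adjusted p = 1e-06). Of all genes in treated larvae, 22.5% were called higher in the mutant and 25.6% had the mutant libraries wholly above. Of the 5 kinase IDs, 4 were called higher in treated mutants with groups apart. The other 3 of these were smaller differences, of 1.24-fold for eif2ak3 (27.4 to 28.0 against 32.1 to 37.1 CPM, adjusted p = 9.7e-04), 1.15-fold for eif2ak1 (adjusted p = 0.043) and 1.12-fold for eif2ak4 (36.2 to 39.0 against 40.5 to 43.7 CPM, adjusted p = 0.037). The calls of eif2ak1 and eif2ak4 were lost with library size alone and with no filter. That of eif2ak1 was also lost, with adjusted p-values of 0.054 to 0.18, without any 1 untreated wild-type library, the 1st or 2nd treated wild-type library or the 1st treated mutant library. That of eif2ak4 was lost, with adjusted p-values of 0.055 to 0.13, without the 2nd or 3rd untreated wild-type library, the 1st or 2nd treated wild-type library or the 1st or 3rd treated mutant library. The fish-specific kinase gene pkz was low, at 0.301 to 0.989 CPM, with no call.

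For subunits of eIF2 and of its exchange factor eIF2B, 8 IDs were tested, of which 2 carry the name of the same subunit, EIF2S1, while eif2s3 was not analysed here. All 8 IDs rose in wild type, with a median log2 fold change of 0.58, and 6 rose in the mutant, with a median of 0.38. The subunit genes with the largest changes were eif2b4 (1.07 in wild type and 1.18 in the mutant), eif2b1 (0.85 and 0.72) and eif2b3 (0.71 and 0.53), all called in both genotypes by edgeR. Beside the overall shares of 22.6% of genes called higher in wild type and 31.1% in the mutant, the count is a description of the list, whose members were chosen with results known.

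Of 9 paralogs and partner factors, 4 rose and 1 fell in wild type, beside 22.6% and 22.2% of all genes, and 5 rose and 2 fell in the mutant, beside 31.1% and 32.6%. The activating transcription factor gene atf3, a target of Atf4, had the largest change of any listed gene. It was at 6.38, 8.25 and 9.74 CPM in untreated and 46.2, 41.3 and 53.7 CPM in treated wild type, and at 8.43, 8.13 and 8.79 CPM in untreated and 365, 179 and 220 CPM in treated mutants. The 4 groups kept the order seen for cebpb, with treated mutants highest, treated wild type next and the untreated groups overlapping. These levels gave rises of 5.83-fold in wild type (log2 2.54, edgeR adjusted p = 3e-08) and 30.2-fold in the mutant (log2 4.91, adjusted p = 2.6e-12), with an interaction of 2.37 (adjusted p = 1.2e-05).

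The gene ppp1r15b encodes CReP, the constitutive counterpart of Gadd34, which directs the phosphatase to eIF2alpha in unstressed cells. It rose 2.62-fold in wild type, from 4.89 ± 0.282 to 12.8 ± 2.15 CPM (mean ± SD, n = 3), and in the mutant it rose 4.88-fold, from 5.21 ± 1.1 to 25.5 ± 3.64 CPM. The interaction was 0.90 (edgeR adjusted p = 0.0046). The Atf5 copy atf5a rose 1.48-fold and 2.86-fold, with an interaction of 0.95 (adjusted p = 1.1e-05). Both phosphatase subunits of eIF2alpha and both copies of Atf5 were therefore higher with arsenic in both genotypes and more so in the mutant.

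The amino acid genes were mixed. Of 10 transporter IDs, 2 rose and 4 fell in wild type, beside 22.6% and 22.2% of all genes, and 4 rose and 3 fell in the mutant, beside 31.1% and 32.6%, so that most of these counts were near the overall shares. The cystine transporter slc7a11 rose by 1.45 and 1.31 on the log2 scale, without a called interaction (-0.15). The glycine transporter slc6a9 fell by 0.55 in wild type and by 1.61 in the mutant (interaction -1.06). Its level in treated mutants, 74.8 to 78.0 CPM, was below that of every other library. The cationic amino acid transporter SLC7A3 (ENSDARG00000061566) gave 0.02 in wild type, which was not called, and rose by 0.69 in the mutant. Its interaction of 0.67 (edgeR adjusted p = 0.025) was lost, with adjusted p-values of 0.052 to 0.084, without the 2nd untreated or the 2nd or 3rd treated wild-type library, or the 1st untreated or 1st treated mutant library. The other ID named SLC7A3, ENSDARG00000020645, was more abundant. It went from 98.0 ± 4.96 to 84.0 ± 5.73 CPM with arsenic in wild type (mean ± SD, n = 3). In the mutant it went from 112 ± 6.13 to 142 ± 25 CPM.

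Of 11 amino acid enzymes, 7 rose and 2 fell with arsenic in wild type, beside 22.6% and 22.2% of all genes. In the mutant 3 rose and 5 fell, beside 31.1% and 32.6%, so that the share that rose there was near the overall one. No enzyme had a higher interaction and 5 had a lower one, against 12.3% and 17.9% of all genes. These 5, psat1, shmt2, phgdh, got1 and mthfd2, were chosen for naming after their values were seen. The serine synthesis gene psat1 was at 16.3 to 19.6 CPM in untreated and 43.1 to 53.5 CPM in treated wild type, and at 34.6 to 42.3 and 35.0 to 42.4 CPM in the mutant without and with arsenic. Like asns, it was lowest in untreated wild type, with the mutant groups overlapping. It rose 2.86-fold in wild type (log2 1.52, edgeR adjusted p = 2.9e-09) and gave a log2 difference of 0.02 in the mutant (adjusted p = 0.89), for an interaction of -1.50 (adjusted p = 9.4e-07). Without arsenic psat1 was 2.17-fold higher in the mutant than in wild type (adjusted p = 1.3e-06).

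The serine synthesis gene phgdh had interaction -0.77 and was 1.92-fold higher in untreated mutants than in untreated wild type (edgeR adjusted p = 1.6e-07). The mitochondrial serine hydroxymethyltransferase gene shmt2 rose by 0.54 in wild type and fell by 0.64 in the mutant on the log2 scale, an interaction of -1.18. The aspartate aminotransferase gene got1 also rose in wild type (0.36) and fell in the mutant (log2 -0.39), an interaction of -0.75. Without arsenic, shmt2 was called higher in the mutant than in wild type (log2 0.34), whereas got1 was called lower (log2 -0.35). The shmt2 call was lost without the 1st or 2nd untreated mutant library. That of got1 was lost without the 1st or 3rd untreated wild-type library or any untreated mutant library. In untreated mutants, 4 of the 11 enzymes were called higher and 2 lower, beside 6.64% and 6.82% of all genes. The folate enzyme gene mthfd2 gave 0.16 in wild type, which was not called, and fell by 0.30 in the mutant, with interaction -0.46. The pattern was not shared by all enzymes of the list. The last gene of serine synthesis, psph, rose by 1.06 and 1.1 on the log2 scale, pck2, the mitochondrial phosphoenolpyruvate carboxykinase gene, fell by 1.02 and 1.08, and CTH (ENSDARG00000032206), for cystathionine gamma-lyase, fell by 1.07 and 1.31, in wild type and the mutant in that order. This CTH ID was low, with means of 5.68 and 6.37 CPM in untreated wild type and mutants. The other ID named CTH, ENSDARG00000074301, was more abundant and went the other way. It went from 61.7 ± 4.1 to 94.7 ± 8.03 CPM with arsenic in wild type and from 59.2 ± 4.32 to 78.7 ± 2.58 CPM in the mutant (mean ± SD, n = 3).

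Among 13 other reported Atf4 targets, 7 rose and 3 fell in wild type, beside 22.6% and 22.2% of all genes, and 9 rose and 1 fell in the mutant, beside 31.1% and 32.6%. A higher interaction was called for 6, beside 12.3% of all genes. The endoplasmic reticulum oxidase gene ero1a was at 3.79 to 4.62 CPM in untreated and 8.93 to 10.9 CPM in treated wild type, and at 3.64 to 4.54 CPM in untreated and 29.4 to 38.5 CPM in treated mutants. It rose by 1.28 in wild type and 3.08 in the mutant on the log2 scale, with an interaction of 1.80. The gene of the mTORC1 regulator sestrin 2, sesn2, rose by 1.23 and 1.91, and its interaction of 0.69 (edgeR adjusted p = 0.042) was lost, with adjusted p-values of 0.058 to 0.11, without any 1 untreated wild-type library, the 1st or 2nd treated wild-type library, the 1st or 2nd untreated mutant library or the 1st treated mutant library. It was also lost with library size alone (adjusted p = 0.063). The secreted stanniocalcin gene STC2 (ENSDARG00000056680) fell by 0.93 and 0.97. The other ID named STC2, ENSDARG00000102206, did not fall. It was at 3.84 ± 0.469 CPM without and 4.10 ± 0.701 CPM with arsenic in wild type, and at 5.12 ± 0.328 and 8.02 ± 0.333 CPM in the mutant (mean ± SD, n = 3).

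Over the whole list of 56 pathway IDs, 30 rose and 11 fell in wild type with a median log2 fold change of 0.23, beside 22.6% and 22.2% of all genes and a median of 0.01. In the mutant 29 rose and 11 fell with a median of 0.27, beside 31.1% and 32.6% and a median of 0.01. For the interaction, 13 were higher and 9 lower with a median of 0.03, beside 12.3% and 17.9% of all genes and a median of -0.05. The numbers that fell in wild type and that had a lower interaction were near those overall shares.

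**Figure D4:**
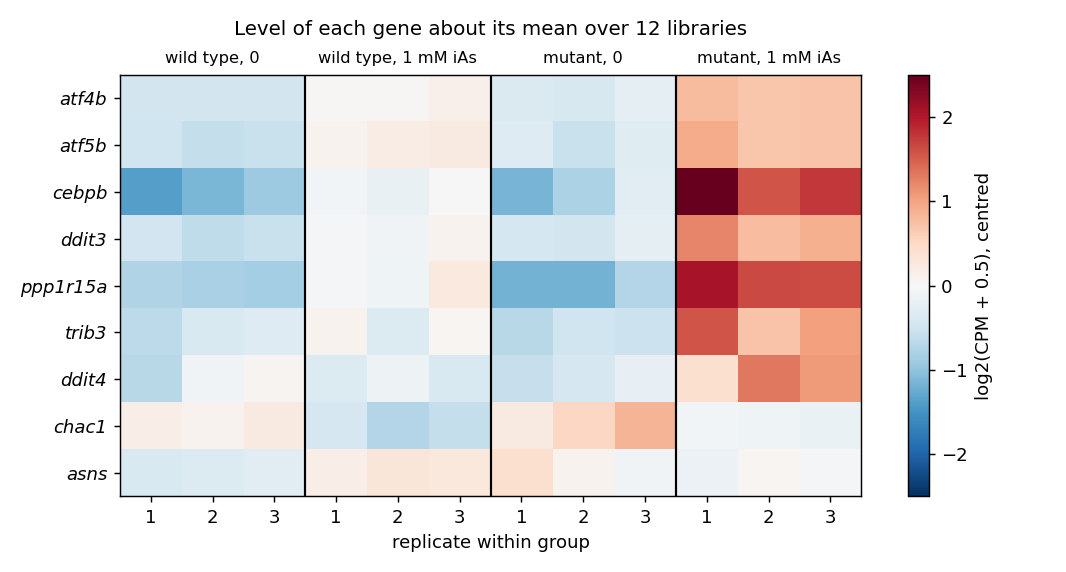
Level of each of the 9 genes (rows) in the 12 libraries (columns, in their 4 groups), as log2(CPM + 0.5) about the gene's mean over all libraries, with red above and blue below that mean. The treated mutant columns are the reddest for 7 genes and most so for cebpb and ppp1r15a, while chac1 is highest in untreated mutants and asns is lowest in untreated wild type.

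The 9 genes did not share a single pattern over the 12 libraries. Besides atf4b and atf5b, the closest were atf5b and ddit3 (root mean square difference 0.15 of centred log2 levels) and atf4b and ddit3 (0.16), and cebpb lay at 0.32 from ppp1r15a. The farthest apart were chac1 and cebpb at 1.42. By the same measure, and among genes with a mean of at least 5 CPM, the gene nearest to ddit3 was the listed atf5a (0.08). The nearest to atf4b was REEP5 (0.05), to atf5b grinab (0.08), to trib3 FOSL2 (0.10) and to ddit4 SLC13A1 (0.21). The nearest to cebpb was GADD45B (ENSDARG00000027744, 0.16), to ppp1r15a STMN4 (ENSDARG00000043932, 0.17), to asns FREM3 (0.10) and to chac1 PBLD (ENSDARG00000026359, 0.12). These distances are descriptions over libraries that share their groups. They depend on the size of a gene's changes as well as on their order over the groups. The centred levels themselves had a root mean square of 0.46 for atf4b and 1.24 for cebpb.

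Organ markers moved with the same groups. The summed level of 7 enterocyte markers was 1707 to 1821 CPM in untreated and 918 to 1023 CPM in treated wild type, and 1870 to 1933 and 395 to 441 CPM in the mutant. The 6 hepatocyte markers summed to 4601 to 5000 CPM and 2933 to 3492 CPM in wild type, and to 4130 to 4781 and 1886 to 2081 CPM in the mutant. The 3 exocrine pancreas markers summed to 3456 to 4317 and 2198 to 2633 CPM in wild type, and to 2420 to 2854 and 733 to 978 CPM in the mutant. These 3 sums were lowest in the treated mutants, the group in which 7 of the 9 genes were highest. All 7 enterocyte and all 3 pancreas markers fell in the mutant, whereas of the 6 hepatocyte markers 4 fell and fgb rose. Among all genes, 32.6% fell and 31.1% rose in that comparison. In wild type, 6 of the 7 enterocyte markers fell, beside 22.2% of all genes. The other, vil1, was not called there, at 338 to 357 CPM without and 363 to 409 CPM with arsenic. The level of fgb, a fibrinogen gene, was 90.3 ± 10.6 CPM in untreated and 175 ± 35.9 CPM in treated mutants, and 95.3 ± 3.33 and 113 ± 27.1 CPM in wild type (mean ± SD, n = 3). Another hepatocyte marker, cp, had 21.2 ± 4.54 CPM in untreated and 20.2 ± 5.19 CPM in treated mutants. In wild type it had 32.2 ± 3.63 CPM without and 15.4 ± 1.66 CPM with arsenic. The treated groups overlapped, at 14.7 to 25.1 CPM in mutants and 13.6 to 16.9 CPM in wild type. Both fgb and cp had a higher interaction, beside 12.3% of all genes, that of cp with a fall in wild type and no called change in the mutant. A lower interaction was called for 3 of the 6 hepatocyte markers, beside 17.9% of all genes. The median interaction over the 6 was -0.55.

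The 9 photoreceptor markers summed to 3797 to 3917 and 2290 to 2707 CPM in wild type and to 3014 to 3199 and 1081 to 1114 CPM in the mutant. Their sum was also lowest in treated mutants, but it was already lower in untreated mutants than in untreated wild type. Without arsenic, 5 of the 9 were called lower in the mutant and 1 higher, beside 6.82% and 6.64% of all genes. All 3 exocrine pancreas markers were called lower in that comparison too. The 6 neuron markers summed to 1199 to 1240 and 954 to 979 CPM in wild type and to 1115 to 1196 and 906 to 1019 CPM in the mutant. The 4 leukocyte markers summed to 49.0 to 55.7 and 34.0 to 35.0 CPM in wild type and to 53.3 to 60.5 and 31.1 to 32.3 CPM in the mutant. Both sums were lower with arsenic in each genotype. Of the neuron markers, 5 fell in the mutant, beside 32.6% of all genes. The other, gap43, rose there, from 60.3 ± 6.8 to 121 ± 16.5 CPM, with a higher interaction, beside 31.1% of all genes that rose. Of the 6 neuron markers, 1 had a higher and 1 a lower interaction, beside 12.3% and 17.9% of all genes. The 6 skeletal muscle markers, at 28027 to 31895 and 28316 to 31647 CPM in wild type and 29687 to 31590 and 31086 to 34875 CPM in the mutant, overlapped in their sum between the 4 groups. Of these 6, TNNT3 (ENSDARG00000030270) rose in wild type, from 137 ± 9.95 to 181 ± 13 CPM, and in the mutant, from 156 ± 11.3 to 298 ± 18.7 CPM, with a higher interaction, and ckma also rose in the mutant, with an adjusted p of 0.049 by edgeR. No marker was at 0 in any group. The part of these shifts in the levels of the 9 genes was not tested.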

How the data were processed

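The deposited files held whole-number read counts per Ensembl gene, 1 file per library, from poly-A selected RNA. FastQC 0.11.5, Trimmomatic 0.36 and the build GRCz10 are named per the submitters' processing notes. Not given in the sources used here are the aligner, the counter and its use of strand, so reads of overlapping or similar genes may be shared. Groups came from the sample titles.

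A filterByExpr filter with a minimum count of 10 left 23096 genes, which were scaled with TMM factors. All 12 libraries entered 1 quasi-likelihood fit of the 4 groups in edgeR 4.0.16 (R 4.3.3, glmQLFit and glmQLFTest). There were 5 contrasts, including the interaction, the mutant response minus the wild-type response. A gene was called at a Benjamini-Hochberg adjusted p below 0.05. The common biological coefficient of variation was 9.00%. CPM values are edgeR's, after scaling. Patterns were compared on log2(CPM + 0.5). The scripts were tested on simulated counts with 200 changed genes, far fewer than were called here. Of simulated interactions, 23.2% of those of log2 0.5 and 64.4% of those of log2 1 were called. False calls made up 6.38% of the calls for the interaction and 7.11% for the wild-type response. Figures were drawn with matplotlib 3.10.9 and tables joined with pandas 2.3.3, under Python 3.11.15.

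The titles number the libraries cl1 to cl3 without saying what the number stands for, and separate clutches are not stated, so the p-values reflect only how far these samples spread, which may be technical spread. The 9 genes and all lists were chosen with earlier results of these data known. Of 55 listed pathway symbols, 56 IDs were tested. The text names the 9 genes, all eIF2alpha kinases, up to 3 called genes per role with the largest change in the mutant, the nearest gene to each of the 9, and as3mt. Outside that rule, 5 amino acid enzymes, the single organ markers given, and the other IDs named CTH, STC2 and SLC7A3 were named after their values were seen. Alternatives were DESeq2 1.42.0, its size factors in edgeR, library size alone, no filter, a mean count of at least 50, the replicate number as a block, and leaving out each library.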

Additional observations from a re-analysis of the deposited data

Results flagged for a closer look

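The response to arsenic differed between the genotypes for 8 of the 9 genes, 7 higher and 1 lower, by the interaction term of edgeR's quasi-likelihood test. Over all genes tested, 30.2% differed, 12.3% higher and 17.9% lower. Each value is given here as the mutant log2 response minus the wild-type one. The transcription factor genes gave 0.53 (atf4b), 0.47 (atf5b), 0.83 (ddit3) and 1.70 (cebpb). The feedback genes gave 1.98 (ppp1r15a) and 1.34 (trib3), and the mTORC1 inhibitor gene ddit4 gave 1.46. For asns the value was -0.78, the response being lower in the mutant. The remaining gene, chac1, was not called, with 0.08. The genotypes were of different strains, so mutation and strain cannot be told apart in these differences.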

How the results depend on the processing

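With DESeq2, its size factors in edgeR, a mean count of at least 50 or the replicate block, the counts of the 9 genes called in each direction equalled those reported in all 5 comparisons. With library size alone and with no filter, 7 genes were higher with arsenic in wild type and 2 lower in the mutant, as asns and trib3 passed the threshold. Leaving out each library gave 1 to 2 lower in the mutant with arsenic, 1 to 2 higher in untreated mutants, 0 to 1 lower in treated mutants against treated wild type, 1 to 5 other pathway genes lower in untreated mutants, and 1022 to 1719 of all genes higher in untreated mutants. It also turned the sign of some values that were not called: the chac1 interaction (-0.059 to 0.25), ddit4 (-0.27 to 0.092), eif2ak2 (-0.31 to 0.024) and SLC7A3 (ENSDARG00000061566; -0.17 to 0.15) with arsenic in wild type, and psat1 in the mutant (-0.062 to 0.11). The last was -0.047 with library size alone and -0.0030 with no filter. The cause was not tested. Same-numbered libraries of different groups correlated at -0.04 to 0.10 in their deviations from group means, so the numbers were not taken to pair the samples. With the replicate block, 5143 genes rose and 5031 fell with arsenic in wild type and 7101 rose and 7457 fell in the mutant, and 2741 interactions were higher and 4058 lower. The precision differed between genes: the standard error of the wild-type response was 0.06 for atf4b and 0.16 for trib3.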
